A study of Mus musculus with 6 samples.

Results

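The 34 genes described here carry out DNA replication or control the passage from G1 into S phase. They were listed by name for their known functions, with earlier results of these arrays known. Each was read from the row of the array table that is annotated with that 1 symbol, and, where a gene had several rows, from the row with the highest mean over the 6 arrays. All 34 were measured, among 19938 genes named by 1 symbol. The series holds 6 arrays of mouse leukaemia cells, 3 labelled AES wildtype and 3 labelled AES knockout, all of strain C57BL/6. Donor cells were E14.5 fetal liver cells with wildtype or floxed AES alleles. Cells of both genotypes were transduced with AML1-ETO9a, a shortened form of the fusion protein of t(8;21) leukaemia, and transplanted. The recipients received tamoxifen at week 4 after transplantation, to delete AES where it was floxed, and spleen cells positive for GFP were isolated by FACS. Which recombinase was used, and in which cells it was active, is not given in the labels. Animals with wildtype cells were sampled after death from leukaemia, those with knockout cells when the experiment ended, so genotype and time of collection cannot be told apart. Nothing in the labels says that the 3 samples of a genotype came from 3 mice, and p-values therefore measure only the spread between these samples.

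Replication is prepared in G1, when Cdc6 and Cdt1 load the ring-shaped MCM helicase onto origins. Cyclin E with its kinase then helps start S phase, when Cdc45 and the GINS complex join the helicase, polymerases copy both strands, and ribonucleotide reductase and thymidylate synthase supply the building blocks. Most of these genes are known targets of E2F transcription factors and are transcribed together before and during S phase, so that their messenger RNA is widely used as a sign of cycling cells. In acute myeloid leukaemia such genes distinguish dividing blasts from quiescent or differentiated cells.

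The values are on a log2 scale, where a difference of 1 is a doubling. The array medians lay between 6.47 and 6.65, and the lowest value of any replication gene was 7.57. The targeted gene, annotated as Tle5, was at 11.13, 11.10 and 11.11 in wildtype and at 8.80, 9.33 and 8.86 in knockout cells, lower on each knockout array as its label says. Of the myeloid markers, Kit, the stem cell factor receptor, lay between 10.60 and 11.80, whereas Mpo, which encodes myeloperoxidase, ranged from 6.08 to 10.08. Mpo was below every array median on wildtype replicate 3 and knockout replicate 1. In the replication genes 1 array, knockout replicate 3, stood apart from the other 5, and results are therefore given with and without it.

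All 34 genes had their lowest value on knockout replicate 3. Over all genes tested, 24.7% had their lowest value on that array, and 27.6% of the 10716 genes above the array median on at least 3 arrays. The shares with the lowest value on wildtype replicates 1 to 3 were 26.0%, 12.5% and 9.64%, and on knockout replicates 1 and 2 they were 11.4% and 15.8%. The count of replication genes was also 34 after quantile normalization and after median centring. On that array the genes lay on average 0.62 below their own 6-array means. The mean deviation was -0.0080, 0.07 and 0.09 on wildtype replicates 1 to 3 and 0.26 and 0.21 on knockout replicates 1 and 2. The other knockout arrays thus held the 2 highest mean deviations of the 6. The gene furthest below its own mean on knockout replicate 3 was Gins1 (-1.07), and the gene nearest to it was Chaf1b (-0.17). As these are bulk samples, fewer cycling cells and less replication mRNA in each cell cannot be told apart.

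**Figure D1:**
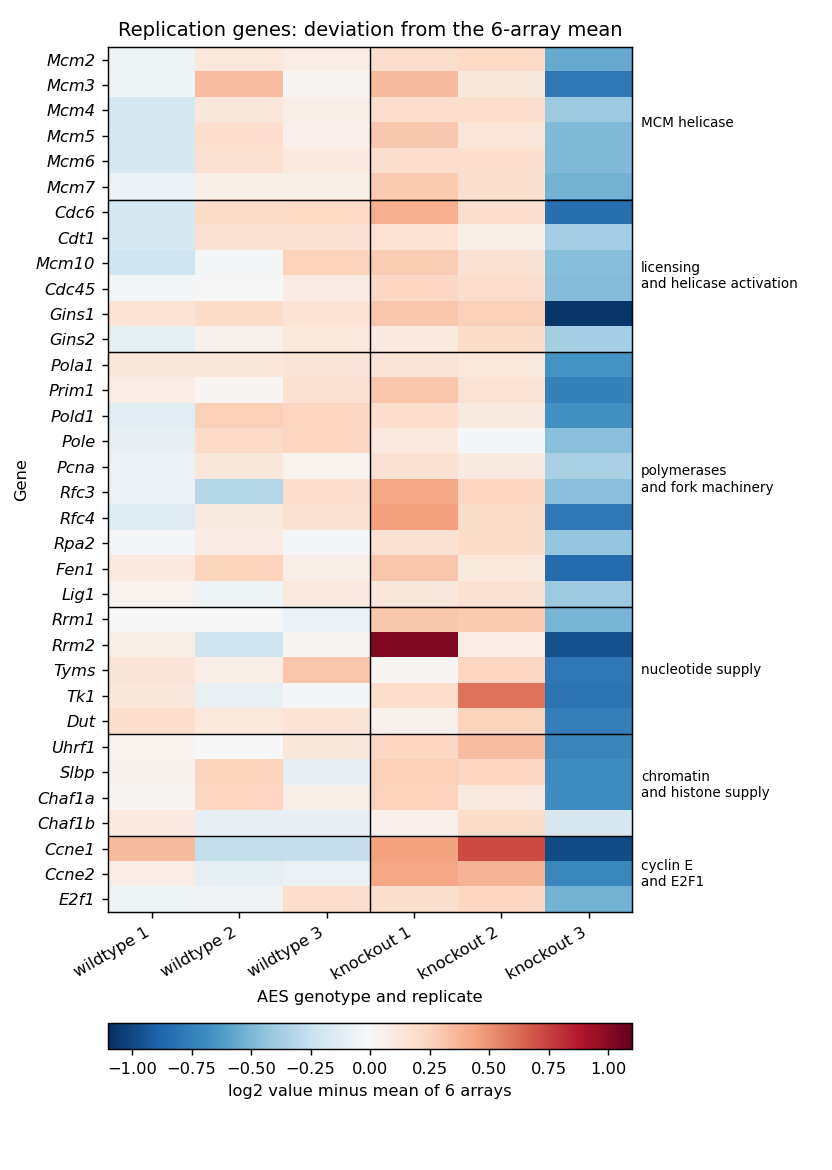
Each row is 1 of the 34 replication genes, ordered by role, and each column is 1 array. Colour gives the log2 value minus that gene's mean over the 6 arrays. The column of knockout replicate 3 is blue in all 34 rows, from -1.07 for Gins1 to -0.17 for Chaf1b, and Rrm2 on knockout replicate 1 is the deepest red.

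The genotypes were compared with limma over all 19938 genes. No replication gene passed in either direction at an adjusted p of 0.05, where the background was 0.0% in each direction. The targeted gene Tle5 did not pass either, with a difference of -2.12 and a limma adjusted p of 0.234. The lack of calls therefore says little about the replication genes. Unadjusted, 0 of the 34 had a p under 0.05, beside 2.53% of all genes, and the smallest unadjusted p was 0.228, for Pole. The knockout mean was lower for 28 of 34 genes, beside 49.1% of all genes and 46.0% of those above the array median. The median difference was -0.07, against 0.0029 over all genes. After median centring 25 of the 34 were lower. Centring raised the median over all genes to 0.033, and the share of all genes that were then lower was not counted. In 0 of the 34 genes did the groups fail to overlap, beside 7.15% of all genes. The exact permutation test, whose smallest two-sided p at 3 against 3 is 0.1, reached it for 0 of the 34 genes.

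The direction of the difference rested on 1 array. Without knockout replicate 3 the knockout mean was higher for 30 of the 34 genes, beside 56.1% of all genes, and the median difference was 0.16. The direction turned for 24 genes. Even then 0 genes passed after adjustment with limma, beside 0.0% of all genes, and 3 of the 34 were higher at an unadjusted p under 0.05, beside 1.75% of all genes. That array was left out for its low values in these same 34 genes, which raises their knockout means. The counts and p-values without it are therefore a description and not a test, and the shares of all genes are no like background. With single arrays left out in turn, the median difference ran from -0.21 to 0.16. With array weights, in which knockout replicate 3 received the smallest weight (0.573), it was 0.011 and 16 genes were lower. Wildtype replicate 1 (0.641) and knockout replicate 1 (0.668) had weights close to that, and knockout replicate 2 the largest (2.19). That fit therefore does not isolate the part of knockout replicate 3. Across the 34 genes the 95% intervals of the difference reached from -1.27 at the lowest to 1.28 at the highest, with a median half-width of 0.60. The data therefore do not show that the genotypes are alike.

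**Figure D2:**
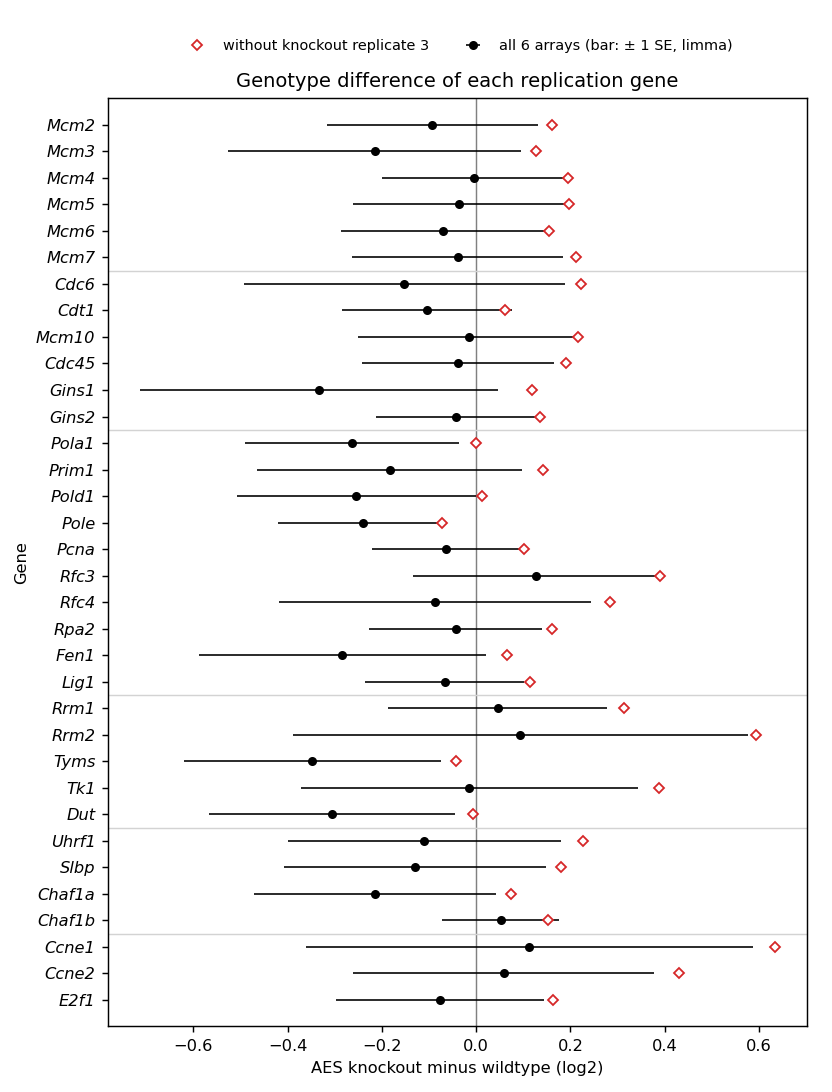
Filled points give the log2 difference of AES knockout minus wildtype for each replication gene, with a bar of 1 standard error of the limma fit to all 6 arrays (n = 3 per group). Open diamonds give the difference without knockout replicate 3. Of the filled points 28 of 34 lie left of 0, and of the diamonds 30 of 34 lie right of it.

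The spread was larger in knockout cells for every gene, which largely restates the low values on knockout replicate 3. The SD was larger among the knockout arrays than among the wildtype arrays for 34 of 34 replication genes, beside 54.7% of all genes and 60.1% of those above the array median. The median SD was 0.11 in wildtype and 0.46 in knockout cells, while over all genes it was 0.13 and 0.14. Pola1, the catalytic subunit of the polymerase that makes primers, was an extreme case. It was at 10.53, 10.53 and 10.54 in wildtype and at 10.54, 10.52 and 9.74 in knockout cells. Its means were 10.53 ± 0.0087 and 10.27 ± 0.45 (SD, n = 3 each), and of the 6 values that of knockout replicate 3 alone stood apart.

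The 6 MCM genes encode the subunits of the helicase that unwinds DNA at the fork. All 6 had lower knockout means, with differences from -0.22 to -0.0050, and all 6 had higher ones without knockout replicate 3, with differences from 0.13 to 0.21. Mcm3 had values of 10.22, 10.61 and 10.30 in wildtype and of 10.62, 10.39 and 9.48 in knockout cells. The groups overlapped, and the difference of -0.22 (SE 0.31) had a limma adjusted p of 1.00. Mcm2 had values of 11.48, 11.66 and 11.62 in wildtype and of 11.73, 11.76 and 10.99 in knockout cells, a difference of -0.09 (SE 0.22). Mcm6 had values of 11.24, 11.59 and 11.53 in wildtype and of 11.61, 11.60 and 10.93 in knockout cells, a difference of -0.07 (SE 0.22). For both genes knockout replicates 1 and 2 lay above all wildtype arrays and knockout replicate 3 below them. Mcm4, Mcm5 and Mcm7 had differences of -0.0050, -0.04 and -0.04. Within wildtype cells, replicate 1 was the lowest array for 6 of 6 MCM genes, and the share of all genes for which this held was not counted.

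**Figure D3:**
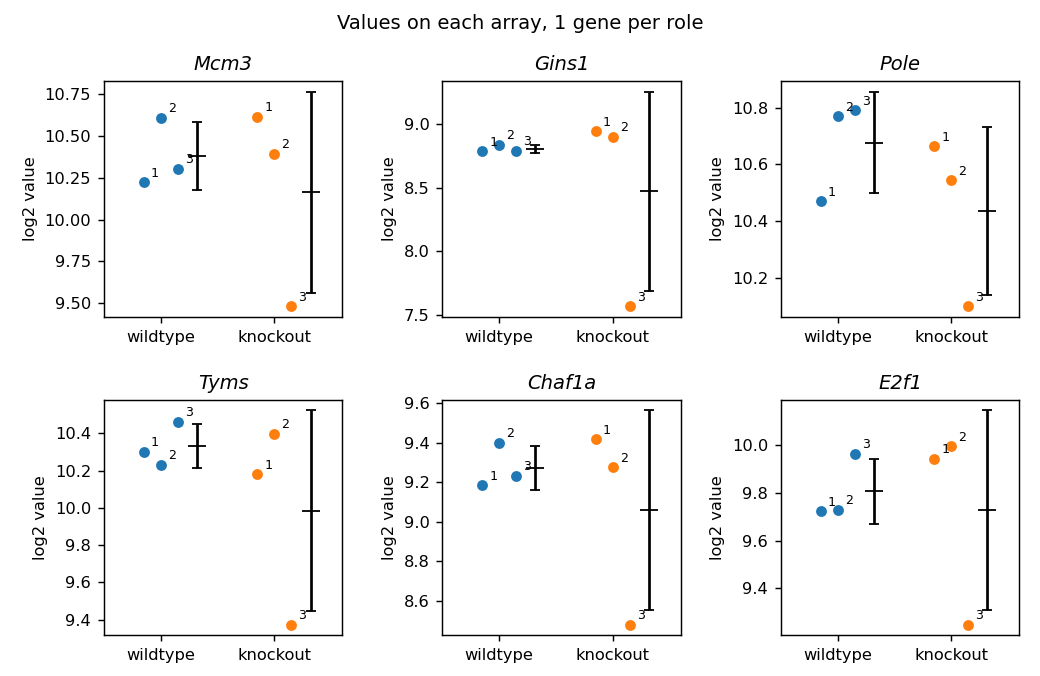
Points are log2 values on single arrays, numbered by replicate, for the gene of each role with the smallest unadjusted p. The horizontal mark and bar beside each group give its mean and SD (n = 3). In all 6 panels knockout replicate 3 is the lowest point and the other 2 knockout values lie among or close to the wildtype values.

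The promoters of the MCM genes are shown because replication genes are known E2F targets and the 34 genes shared their lowest array. A promoter here is the stretch from 250 bases before to 50 bases after the start annotated by RefSeq in GRCm38.p6. An E2F-type motif was taken as TTTCGCGC, TTTGGCGC, TTTCCCGC or TTTGGCGG on either strand. Each sequence runs 5′ to 3′ on the strand of the gene, and capitals mark these motifs, which overlap in Mcm5 and Mcm6.
Mcm3, GRCm38.p6 chr1:20820263-20820562, minus strand: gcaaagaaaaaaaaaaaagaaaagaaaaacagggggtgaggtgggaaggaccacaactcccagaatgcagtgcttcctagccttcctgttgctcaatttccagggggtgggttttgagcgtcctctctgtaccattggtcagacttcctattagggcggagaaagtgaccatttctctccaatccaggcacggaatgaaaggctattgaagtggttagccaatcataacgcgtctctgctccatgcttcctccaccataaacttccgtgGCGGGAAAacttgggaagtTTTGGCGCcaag
Mcm5, GRCm38.p6 chr8:75109259-75109558, plus strand: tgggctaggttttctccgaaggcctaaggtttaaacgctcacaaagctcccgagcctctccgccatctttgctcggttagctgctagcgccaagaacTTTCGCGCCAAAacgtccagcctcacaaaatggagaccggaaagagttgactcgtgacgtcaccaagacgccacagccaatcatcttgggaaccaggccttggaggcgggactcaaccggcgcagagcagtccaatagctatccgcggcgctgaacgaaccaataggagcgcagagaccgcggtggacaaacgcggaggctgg
Mcm6, GRCm38.p6 chr1:128359656-128359955, minus strand: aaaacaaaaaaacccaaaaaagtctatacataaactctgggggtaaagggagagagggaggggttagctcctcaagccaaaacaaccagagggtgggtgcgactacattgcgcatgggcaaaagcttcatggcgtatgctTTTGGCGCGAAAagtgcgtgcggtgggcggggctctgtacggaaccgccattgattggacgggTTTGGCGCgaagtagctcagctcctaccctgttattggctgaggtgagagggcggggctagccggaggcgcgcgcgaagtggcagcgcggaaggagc
Mcm7, GRCm38.p6 chr5:138171834-138172133, minus strand: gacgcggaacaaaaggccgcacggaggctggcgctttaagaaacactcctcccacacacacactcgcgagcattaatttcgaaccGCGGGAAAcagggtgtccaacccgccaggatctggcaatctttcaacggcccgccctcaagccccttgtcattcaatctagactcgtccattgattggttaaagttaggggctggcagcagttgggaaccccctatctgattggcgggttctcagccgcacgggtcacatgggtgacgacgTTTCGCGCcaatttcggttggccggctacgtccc
In Mcm5 a match on each strand shares letters in the middle of 1 run, at -153 and -149 from the start, and Mcm6 has such a run at -110 and -106 and a further match at -47. In Mcm3 both matches lie after the start, at 20 and 39. Mcm7 has 1 match at -165 and 1 at 17. Mcm2 had no match in its window, and Mcm4 is not in the promoter table.

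Of the 34 genes, 29 had a promoter in the table, and 12 of these 29 (41.4%) held an E2F-type motif. Among all genes of the array table with a promoter, 580 of 15614 (3.71%) did, and 2.37% of all 32851 promoters. Besides the MCM genes the 12 were Cdc6, Cdt1, Pola1, Pold1, Rfc3, Lig1, Uhrf1 and Chaf1a. The motif CCAAT, on either strand, was found for 17 of 29 genes (58.6%) and for 41.7% of all genes with a promoter. A CHR-type motif, TTTGAA or TTCGAA on either strand, which is typical of genes of mitosis, was found for 5 of 29 (17.2%) and for 19.0% of all genes. Of 24 mitotic genes with a promoter, 1 held an E2F-type and 20 a CHR-type motif. The 12 replication genes with an E2F-type motif had a median deviation of -0.59 on knockout replicate 3, and the 17 without one of -0.68. These are matches of letters in a window and not sites of binding. No sequence was used to choose the genes, although their known function and E2F control are related.

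**Figure D4:**
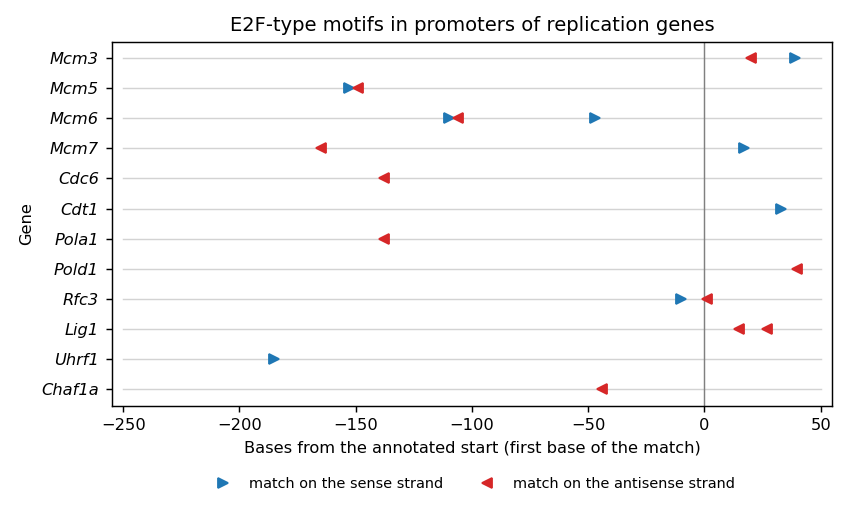
Each line is the promoter window of 1 of the 12 replication genes with an E2F-type motif, from 250 bases before to 50 after the annotated start at the vertical line. Triangles mark the first base of each match and point along its strand. Matches lie from -185 (Uhrf1) to 40 (Pold1), with overlapping pairs in Mcm5 and Mcm6.

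Cdc6 and Cdt1 load the helicase, and Mcm10, Cdc45 and the GINS subunits activate it. All 6 of these genes had lower knockout means, and all 6 had higher ones without knockout replicate 3. Gins1, a subunit of the GINS complex, had values of 8.78, 8.84 and 8.79 in wildtype and of 8.94, 8.90 and 7.57 in knockout cells. Its difference of -0.33 (SE 0.38) became 0.12 without knockout replicate 3, the array on which it was 1.07 below its mean. Cdt1 had values of 10.04, 10.38 and 10.38 in wildtype and of 10.38, 10.28 and 9.83 in knockout cells, a difference of -0.11 (SE 0.18). Cdc6, an ATPase of the loading step, had values of 8.86, 9.25 and 9.26 in wildtype and of 9.45, 9.24 and 8.22 in knockout cells, a difference of -0.15 (SE 0.34). In both of these genes the wildtype array with the lowest value, replicate 1, was above knockout replicate 3 and below the other 2 knockout arrays. Cdc45, Gins2 and Mcm10 had differences between -0.04 and -0.016. Wildtype replicate 1 was the lowest wildtype array for all 6 of these genes as well.

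The machinery at the fork comprised 10 genes, of which 9 had lower knockout means (median -0.14). Pole, the catalytic subunit of the leading strand polymerase, had the smallest unadjusted p of the 34 genes. Its values were 10.47, 10.77 and 10.79 in wildtype and 10.66, 10.54 and 10.10 in knockout cells, a difference of -0.24 (SE 0.18) that was -0.07 without knockout replicate 3. Knockout replicates 1 and 2 lay inside its wildtype range. Pold1, the catalytic subunit of the lagging strand polymerase, had values of 10.02, 10.39 and 10.37 in wildtype and of 10.32, 10.23 and 9.47 in knockout cells, a difference of -0.25 (SE 0.25). Without knockout replicate 3 it was 0.013. Pola1 likewise had a difference of -0.26 (SE 0.23) with that array and of -0.00048 without it. Rfc3, a subunit of the clamp loader, was the 1 gene of this group with a higher knockout mean and had the highest difference of all 34 genes. Its values were 8.86, 8.61 and 9.11 in wildtype and 9.35, 9.16 and 8.46 in knockout cells, a difference of 0.13 (SE 0.26). Rfc4, another subunit of the clamp loader, had a difference of -0.09. Prim1, the primase, Fen1, the flap nuclease, Lig1, the ligase, Rpa2, of the single-strand binding protein, Pcna, the sliding clamp, and Rfc4 had differences between -0.28 and -0.04, and between 0.066 and 0.28 without knockout replicate 3. Pcna had 2 rows, with differences of -0.0632 and -0.0617 and the lowest value on knockout replicate 3 in both. Whether rows of 1 gene share probes with a near-identical copy was not tested, so the levels of Pcna, Slbp and Tk1 are uncertain.

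Of the 5 genes of nucleotide supply, 3 had lower knockout means (median -0.0145), and without knockout replicate 3 there were 3 with higher ones (median 0.31). Tyms, thymidylate synthase, had the lowest difference of the 34 genes. It had values of 10.30, 10.23 and 10.46 in wildtype and of 10.18, 10.40 and 9.37 in knockout cells, a difference of -0.35 (SE 0.27) or 1.27-fold lower, with a limma adjusted p of 1.00. Dut, which removes dUTP, had values of 9.84, 9.77 and 9.80 in wildtype and of 9.70, 9.89 and 8.90 in knockout cells, a difference of -0.31 (SE 0.26). Without knockout replicate 3 these differences were -0.04 and -0.0074. Rrm1, the large subunit of ribonucleotide reductase, had values of 11.73, 11.73 and 11.65 in wildtype and of 12.02, 12.01 and 11.21 in knockout cells. Knockout replicates 1 and 2 exceeded every wildtype value and knockout replicate 3 lay below them. Its difference was 0.05 (SE 0.23), and 0.31 without knockout replicate 3. Rrm2, the small subunit, had values of 11.25, 10.97 and 11.21 in wildtype and of 12.20, 11.27 and 10.23 in knockout cells. The knockout arrays held both its lowest and its highest value (SD 0.99), and its difference was 0.09 (SE 0.48). Tk1, thymidine kinase, had its highest value on knockout replicate 2 (10.61) and its lowest on knockout replicate 3 (9.20). Its difference was -0.0145 in the brighter row and -0.159 in the other, and which row measures the gene more closely was not tested.

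Of the 4 genes of chromatin and histone supply, 3 had lower knockout means. Chaf1a and Chaf1b encode subunits of chromatin assembly factor 1, which places histones on new DNA. Chaf1a had values of 9.18, 9.40 and 9.23 in wildtype and of 9.42, 9.27 and 8.48 in knockout cells, a difference of -0.21 (SE 0.26). Chaf1b had values of 10.38, 10.18 and 10.18 in wildtype and of 10.32, 10.47 and 10.10 in knockout cells, a difference of 0.05 (SE 0.12). Both were lowest on knockout replicate 3, where Chaf1a deviated from its mean by -0.68 and Chaf1b by -0.17. Slbp, which binds the stem-loop of histone mRNA, had values of 9.98, 10.18 and 9.84 in wildtype and of 10.20, 10.16 and 9.25 in knockout cells, a difference of -0.13 (SE 0.28). Its other row gave a difference of -0.0523. Uhrf1, which guides maintenance of DNA methylation behind the fork, had a difference of -0.11, and of 0.23 without knockout replicate 3.

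Cyclin E and E2F1 act at the entry into S phase. Ccne1 had values of 9.35, 8.74 and 8.74 in wildtype and of 9.44, 9.72 and 8.01 in knockout cells, a difference of 0.11 (SE 0.47). The knockout arrays held its 2 highest values and its lowest. Ccne2 had values of 8.85, 8.66 and 8.69 in wildtype and of 9.19, 9.14 and 8.05 in knockout cells, a difference of 0.06 (SE 0.32). E2f1 had values of 9.72, 9.73 and 9.96 in wildtype and of 9.94, 9.995 and 9.25 in knockout cells, a difference of -0.08 (SE 0.22). Without knockout replicate 3 the differences of Ccne1 and Ccne2 were 0.63 and 0.43, with unadjusted limma p of 0.0439 and 0.00710 and an adjusted p of 0.999 for each. Rrm1 was the other gene at an unadjusted p under 0.05 in that fit. As the array was left out for its low values in these genes, these p-values are no evidence of a difference.

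The order of the wildtype arrays differed between the roles. Wildtype replicate 1 was the lowest wildtype array for 12 of 12 MCM, licensing and activation genes and for 0 of 5 genes of nucleotide supply. It was so for 5 of 10 fork genes, 1 of 4 chromatin genes and 1 of 3 of cyclin E and E2F1. The share of all genes was not counted. Being lowest among all 6 arrays is a different measure. By it wildtype replicate 1 was lowest for 0 of the 34 genes and for 26.0% of all genes. The same held for 3 of 7 further genes of nucleotide supply. The mean deviation on that array was -0.12 for the MCM genes and -0.09 for the licensing and activation genes, and 0.10 for nucleotide supply and 0.13 for cyclin E and E2F1. Knockout replicate 3 was low for every role, from -0.54 for the MCM genes to -0.76 for nucleotide supply. The difference between roles was not tested, since genes of a role share the same arrays.

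**Figure D5:**
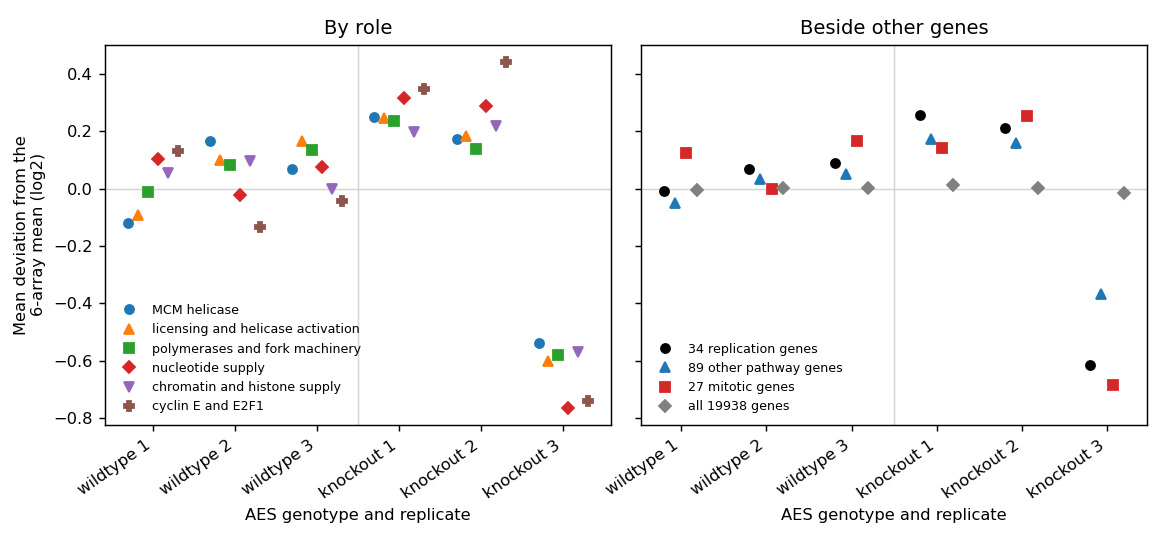
Each symbol is the mean, over the genes of a list, of the log2 value minus the gene's 6-array mean on 1 array. The left panel shows the 34 replication genes by role, and the right panel shows them beside 89 other pathway genes, 27 mitotic genes and all 19938 genes. On knockout replicate 3 the roles lie between -0.76 and -0.54, the other pathway genes at -0.37, the mitotic genes at -0.68 and all genes at -0.02.

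The wider pathway was described by 7 further lists of 91 genes, 89 of them measured. With limma 0 were higher and 0 lower after adjustment, and 3 had an unadjusted p under 0.05 (2.53% of all genes). The knockout mean was lower for 55 of 89 (median -0.04), beside 49.1% of all genes. Knockout replicate 3 held the lowest value for 57 of 89, beside 24.7% of all genes. Without that array 79 of 89 were higher (median 0.14), beside 56.1% of all genes. Leaving out an array on which most of them were lowest raises their knockout means, so this count is a description and not a test. Initiation genes had their lowest value on knockout replicate 3 for 10 of 10, among them Cdc7, the kinase that triggers origins (difference -0.26), and the helicase Recql4 (-0.26). Origin recognition and licensing genes were lowest there for 6 of 10. Gmnn, the inhibitor of Cdt1, had a difference of -0.14 and Mcm9 of 0.07. Other subunits of polymerases, the clamp loader and the fork were lowest on knockout replicate 3 for 12 of 20. Rnaseh2b and Pold4, with differences of 0.15 and 0.31, were not among these. They were lowest on wildtype replicates 2 and 3, and Pold4 was highest on knockout replicate 3 (9.26). Fork protection and checkpoint genes were lowest on knockout replicate 3 for 8 of 10, among them Timeless (difference -0.25). Atrip (-0.24) was lowest on knockout replicate 2. Histone chaperones were lowest on knockout replicate 3 for 6 of 9, among them Asf1b (-0.17). Rbbp7 (0.11) was lowest on wildtype replicate 1. Further genes of nucleotide supply were lowest on knockout replicate 3 for 2 of 7. Samhd1, which degrades dNTPs, had a difference of -0.34 and was lowest on knockout replicate 1. Regulators of G1 and S phase were lowest on knockout replicate 3 for 13 of 23, and 11 of 23 had lower knockout means (median 0.0087).

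The 3 genes of the wider pathway at an unadjusted p under 0.05 were each higher on all knockout arrays than on any wildtype array. Rbl2, the pocket protein p130, had values of 10.19, 10.02 and 10.12 in wildtype and of 10.29, 10.67 and 10.52 in knockout cells, a difference of 0.38 (SE 0.12, limma adjusted p = 1.00). Rb1, the retinoblastoma protein, which holds E2F in check, had values of 11.30, 11.23 and 11.13 in wildtype and of 11.41, 11.47 and 11.37 in knockout cells, a difference of 0.20 (SE 0.079). Rrm2b, the ribonucleotide reductase subunit induced by p53, had values of 6.71, 6.9997 and 7.21 in wildtype and of 7.32, 7.43 and 7.43 in knockout cells, a difference of 0.42 (SE 0.14). All 3 had their lowest value in wildtype cells. None passed after adjustment. Groups that did not overlap were found for 3 of 89 genes, a smaller share than the 7.15% of all genes. The 3 were picked by their small p, so the lack of overlap is no separate support.

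Mitotic genes, which act later in the cycle, were low on the same array. Of 27 measured, 26 had their lowest value on knockout replicate 3 (24.7% of all genes) and 26 had lower knockout means (49.1% of all genes). Their median difference of -0.20 was 0.10 without that array. Cenpf and Ccnb2 had differences of -0.29 and -0.26. The mean deviation of the mitotic genes on knockout replicate 1 was 0.14, beside 0.26 for the replication genes. On wildtype replicate 1 it was 0.13, beside -0.0080. Whether the 2 sets differ was not tested, as their values come from the same arrays.

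Markers of cell types were read on the same arrays. Of 8 measured markers of red pulp macrophages, 6 had their highest value on knockout replicate 3, where their mean level was 8.38, against 6.05 and 6.53 on the other knockout arrays and 6.46 to 7.66 in wildtype. Of 9 B cell markers 8 were highest there, with a mean level of 7.36 against 5.91 and 6.84 in the other knockout samples and 6.18 to 6.93 in wildtype. The exception, Ighm, was highest on wildtype replicate 2 (10.11). It was also the brightest of the 9 on knockout replicate 3 (9.25), where Ms4a1 (6.43) and Ebf1 (6.44) lay below the array median of 6.65. Of 10 neutrophil markers 6 were highest there, with a mean level of 9.43, against 5.35 and 9.30 on the other knockout arrays and 5.41 to 9.15 in wildtype. Of 6 erythroid markers 2 were lowest there, as many as on each of wildtype replicates 2 and 3. Their mean level on knockout replicate 3 was 9.46, against 10.72 and 11.61 on the other knockout arrays and 9.60 to 10.97 in wildtype. The mean level of 11 T and NK cell markers was 5.71 there, below the array median. That of 9 myeloid blast markers was 7.01, 8.57 and 9.18 on the knockout arrays and 7.20 to 9.32 in wildtype. Over the 6 arrays the mean level of the mast cell and basophil markers ran from 7.39 to 10.99, that of the dendritic cell markers from 6.21 to 7.98 and that of the megakaryocyte markers from 6.27 to 6.79. With no detection calls, low levels could not be set apart from absence. Whether the markers were expressed by the leukaemia cells themselves or by other cells in the sorted samples was not tested. The part of these cell types in the low replication genes of knockout replicate 3 was not tested either.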

How the data were processed

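Total RNA of sorted GFP-positive spleen cells was labelled with biotin, per the labels, and read on Affymetrix Mouse Gene 1.0 ST arrays, 1 per sample. The authors deposited processed values between 2.67 and 14.4, which were taken as log2 values from their range. No label or header states the base, background correction, probe summary or normalization, and there are no detection calls, so differences of dim genes may be compressed. Labels and headers give no batch.

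Of 35512 rows, 1 held no value, 21789 carried 1 symbol, 1621 several and 12101 none. Only the first were named and tested, with the brightest row per gene, since 999 genes had several. The genotype difference was tested with limma (lmFit, eBayes, two-sided, without a block) over 19938 genes, with Benjamini-Hochberg adjustment. The fit was tested on simulated data. Genes given in full are the 3 with the smallest unadjusted p in each of 6 roles, those whose groups do not overlap, and those with the highest and lowest difference. For each pathway list the 2 genes with the smallest p are given. Rrm2, Tk1, Rfc4, Pcna and Uhrf1 were added after their values were seen, as were the second rows of Pcna, Slbp and Tk1. Genes, lists and roles were chosen with earlier results of these data known.

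Promoters came from RefSeq (GRCm38.p6). A planned comparison of MCM proteins was not run. Precision is limited by the number of arrays, 3 per genotype. The fits ran in R 4.3.3 with limma 3.58.1, and tables and plots were made in Python 3.11.15 with matplotlib 3.10.9. Alternatives were a filter on dim genes, median centring, quantile normalization, trended and robust eBayes, a replicate block, the mean of a gene's rows, array weights and leaving out each array.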

Additional observations from a re-analysis of the deposited data

How the results depend on the processing

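No replication gene passed after adjustment under any of the 13 alternatives. The lowest limma adjusted p of any of them was 0.897, with array weights, and under the others it ran from 0.972 to 1.00. The number of all genes called was 0 to 3 when 1 array was left out, with the 3 without knockout replicate 2, and 0 under the other alternatives. The replicate number as a block called 0 genes and left each difference as it was. Deviations from the group means of same-numbered samples correlated at -0.26, -0.23 and 0.07. Those of samples with different numbers correlated at -0.17 to 0.34. With 3 arrays per group and no known pairs for reference, this cannot decide whether the numbers pair the samples. The number of replication genes with a lower knockout mean was 16 with array weights and ran from 4, without knockout replicate 3, to 33 with single arrays left out. The median of the 7 further genes of nucleotide supply ran from -0.28 to 0.19 likewise. Differences of single genes were followed only for the 19 replication genes chosen by the rule above, so sign changes of other replication genes are not listed. With array weights the differences of Mcm2 and E2f1 turned to 0.015 and 0.053, since arrays counted unequally. With single arrays left out, differences that changed sign ran from -0.23 to 0.16 for Mcm2, -0.44 to 0.13 for Mcm3, -0.18 to 0.15 for Mcm6, -0.39 to 0.22 for Cdc6, -0.22 to 0.061 for Cdt1, -0.57 to 0.12 for Gins1 and -0.41 to 0.013 for Pold1. They ran from -0.053 to 0.39 for Rfc3, -0.091 to 0.31 for Rrm1, -0.29 to 0.18 for Slbp, -0.39 to 0.075 for Chaf1a, -0.034 to 0.15 for Chaf1b, -0.22 to 0.63 for Ccne1, -0.14 to 0.43 for Ccne2 and -0.21 to 0.16 for E2f1. Leaving out an array changes only the samples in the fit.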
